A study of Mus musculus with 7 samples.

Results

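The 45 protein-coding genes of the matrix metalloproteinases, the ADAMTS proteinases and their inhibitors were examined in H3K27-Ac peak lists of 3 mouse skin tumour cell clones. They were taken by symbol from the 21938 protein-coding genes of the GENCODE annotation of GRCm38, and comprise 22 *Mmp* genes, 19 *Adamts* genes and 4 *Timp* genes. This set of genes was chosen with earlier results of these data known. *Adamtsl* genes, whose products have no protease domain, were not taken, and neither was *Mmp1a*, which lies among the *Mmp* genes of chromosome 9 but is annotated there as a polymorphic pseudogene.

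The clones carried the same genotype, Cdkn2ab-/-, on a backcross between FVB and 129P2, and they came from different skin tumours. Each had been picked from soft agar for its growth without anchorage and kept as an adherent line, so that every clone is a selected cell line and stands for 1 tumour. Of the 7 libraries 4 were made with the antibody to H3K27-Ac, where clone 3 had 2 that had been pooled before peaks were called, and 3 with IgG as a control, from clones 1 and 3. All samples belong to a single untreated condition, so that the comparisons are between genes within a list and between clones as replicates.

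H3K27-Ac, the acetylation of lysine 27 of histone H3, marks active promoters and enhancers. Matrix metalloproteinases are zinc endopeptidases that cut collagens, elastin, laminins and other matrix proteins and that are made as inactive zymogens, either secreted or anchored in the membrane. ADAMTS proteinases are secreted relatives that bind the matrix and cut proteoglycans, procollagens and microfibril proteins, and TIMPs are small secreted inhibitors of both families. In skin, collagenases and stromelysins are known as genes of migrating keratinocytes, wounds and carcinomas, and their promoters as textbook examples of control by AP-1, the transcription factor made of Fos and Jun proteins.

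The lists of clones 1, 2 and 3 hold 29182, 49587 and 29277 peaks on the assembled chromosomes. For each peak they give the fold enrichment, that is the ChIP pileup plus 1 over the local background plus 1 at the summit. Both are counted in control reads. A ChIP read was found to count as 0.424, 0.428 and 0.308 control reads in clones 1, 2 and 3. The number of ChIP reads at the summit was worked out from the fold enrichment and the p-value. Peaks at the examined genes held at least 13 reads, and the lowest −log10 q of a list was 1.30 to 1.35, so weaker sites are not listed. The labelled origin of the clones is skin tumour. Among marker genes of cell types, the keratinocyte genes *Krt5*, *Trp63* and *Cdh1* had no promoter peak in any clone, *Krt14* had one in clone 1 only and *Krt15* in clone 2 only, whereas the mesenchymal genes *Vim* and *Twist1* and the hair germ genes *Sox9* and *Cdh3* had one in all 3 clones. *Lef1*, a further hair germ gene, had none, and *Col1a1*, *Col1a2* and *Pdgfra* had one in clones 1 and 2. The endothelial genes *Pecam1* and *Cdh5* and the immune gene *Ptprc* had none, *Cd68* had one in clones 1 and 2 and *Spi1* in clone 2. Of the melanocyte genes, *Mitf* and *Pmel* had one in all 3 clones, that of *Pmel* lying also at a start of *Cdk2*, and *Dct* had none. The part that cell type plays in the results was not tested.

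A promoter peak, defined as a peak within 1 kb of any annotated transcription start of the gene, was listed for 17, 24 and 13 of the 45 genes in clones 1, 2 and 3 (37.8%, 53.3% and 28.9%), a mean of 18 ± 5.57 genes (SD, n = 3 clones). Over all protein-coding genes the shares in these lists were 49.8%, 56.9% and 48.1%. The 13 genes of clone 3 had a promoter peak in all 3 clones, which is 28.9% of the members against 46.5% of all protein-coding genes. They were *Adamts1*, *Adamts2*, *Adamts5*, *Adamts6*, *Adamts12*, *Adamts14*, *Mmp11*, *Mmp14*, *Mmp19*, *Mmp28*, *Timp1*, *Timp2* and *Timp3*. A further 4 genes had a promoter peak in clones 1 and 2, 7 had one in clone 2 only, and 21 had none.

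The shares were uneven over the families, a difference that was not tested. For the *Mmp* genes 6, 9 and 4 of 22 had a promoter peak in clones 1, 2 and 3, a share below that of all protein-coding genes in every list. For the *Adamts* genes 8, 12 and 6 of 19 had one, a share above that of all genes in clone 2 and below it in clones 1 and 3. The inhibitors *Timp1*, *Timp2* and *Timp3* had one in every clone and *Timp4* in none.

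**Figure D1:**
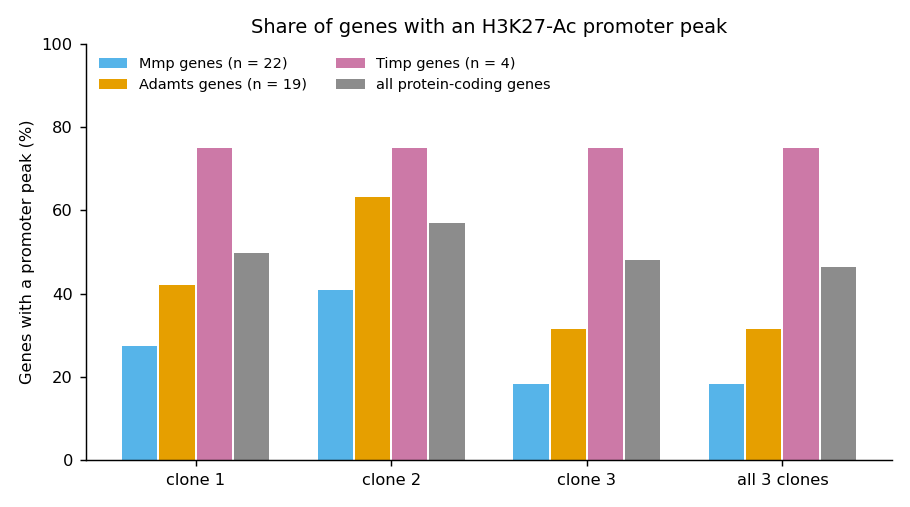
Share of the 22 *Mmp*, 19 *Adamts* and 4 *Timp* genes and of all protein-coding genes with an H3K27-Ac peak within 1 kb of a start, in percent, for each clone and for all 3 clones together. Each bar is a share of genes in 1 list and has no error bar; the *Mmp* bars lie below the grey bars in every group, and the *Timp* bars stand at 3 of 4 genes throughout.

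The promoter peaks of the members ranked low among promoter peaks. When the strongest promoter peak stood for a gene, the median fold enrichment over the members with such a peak was 10.6 in clone 1, 15.3 in clone 2 and 6.60 in clone 3, a mean of 10.9 ± 4.37 (SD, n = 3 clones). Fold enrichment depends on the depth and control of each list, so this SD does not measure a spread in acetylation. Over all protein-coding genes with a promoter peak the medians were 18.8, 39.3 and 8.30, and the medians of the members fell at percentiles 22.4, 17.2 and 32.7 of those genes.

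With peaks over the gene body and intergenic peaks within 50 kb also counted, 20, 28 and 21 of the 45 genes had a peak in clones 1, 2 and 3, against 59.3%, 68.4% and 60.2% of all protein-coding genes. Any such peak was present in all 3 clones at 18 members (40.0%), against 55.3% of all genes. No peak of any class was listed in any clone for 16 members (35.6%), against 29.3% of all genes. They were *Adamts3*, *Adamts13*, *Adamts18*, *Adamts19*, *Adamts20*, *Mmp9*, *Mmp21* and the 9 genes of the chromosome 9 cluster.

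The cluster holds *Mmp13*, *Mmp12*, *Mmp1b*, *Mmp3*, *Mmp10*, *Mmp8*, *Mmp27*, *Mmp20* and *Mmp7* in this order and no other protein-coding gene, and runs over 427 kb from 7272514 to 7699585 of chromosome 9 in GRCm38. Its genes include the collagenases *Mmp13* and *Mmp8*, which open the collagen triple helix, *Mmp1b*, which is related to the human interstitial collagenase, the stromelysins *Mmp3* and *Mmp10*, the macrophage elastase *Mmp12*, the enamel proteinase *Mmp20*, the epithelial matrilysin *Mmp7* and *Mmp27*. None of the 3 lists had a peak anywhere in the cluster, neither at a start nor between the genes. The nearest peak on the *Mmp13* side lay 87.0 kb away in each clone, at the shared start region of *Dync2h1* and *Dcun1d5*, with fold enrichments of 22.1, 53.0 and 13.2 (154, 369 and 125 reads) in clones 1, 2 and 3. On the *Mmp7* side it lay 63.8 to 63.9 kb away, at *Tmem123*, with fold enrichments of 8.54, 76.6 and 4.08 (45, 342 and 41 reads). The stretch without a peak was 578 kb long in every clone.

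Windows as long as the cluster itself were also counted over the genome. Of 239469 windows of 427 kb placed every 10 kb on the autosomes, 36.0% held no peak in clone 1, 31.7% in clone 2 and 31.1% in clone 3. Among the 33955 of these windows that overlap at least 9 protein-coding genes, as the cluster does, the shares were 10.6%, 8.95% and 10.4%. These windows overlap each other and are a description of the lists.

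**Figure D2:**
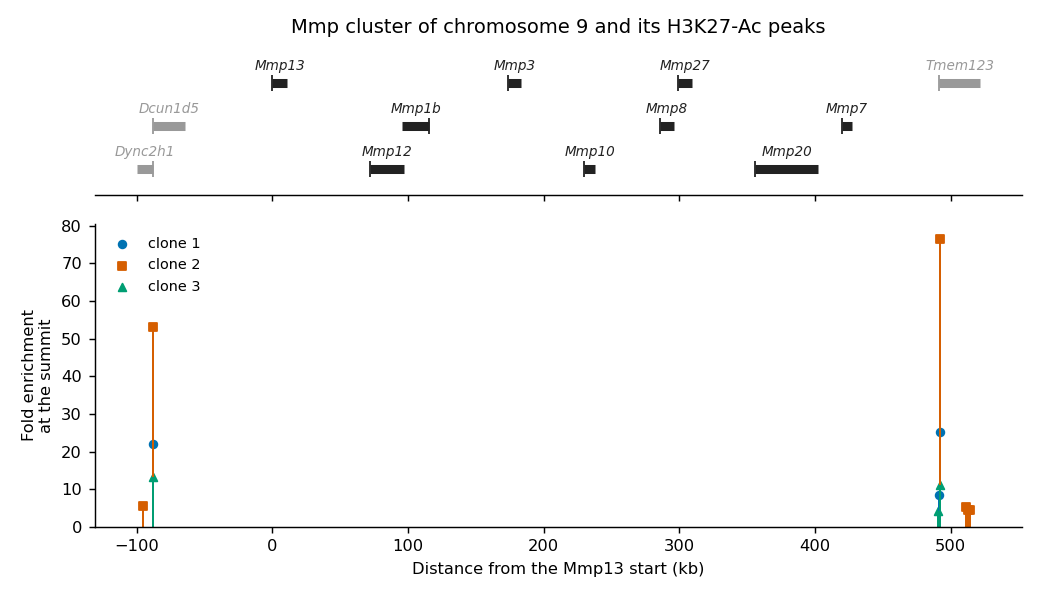
Protein-coding genes (upper panel, ticks at their outermost starts, members in black and other genes in grey) and H3K27-Ac peak summits of the 3 clones (lower panel, fold enrichment on a linear axis) over the *Mmp* cluster of chromosome 9, by distance from the *Mmp13* start in kb. All peaks lie at the flanking genes, and the 9 *Mmp* genes between them have none in any clone.

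The 250 bases before the starts of 4 genes of the cluster are shown, because they carry the AP-1 and TATA motifs for which these promoters are known and yet had no peak, and those of 3 genes with a promoter peak in all 3 clones are set beside them. The sequences are those of RefSeq on GRCm38, read from 5′ to 3′ on the strand of the gene, and end at the base before the start. Capitals mark matches on either strand to the AP-1 motif TGANTCA, the TATA box TATAAA and the GC box GGGCGG. The windows lie at chr9:7272264-7272513 (*Mmp13*, plus strand), chr9:7445572-7445821 (*Mmp3*, plus), chr9:7502092-7502341 (*Mmp10*, plus), chr9:7691840-7692089 (*Mmp7*, plus), chr16:85803114-85803363 (*Adamts1*, minus), chr14:54431348-54431597 (*Mmp14*, plus) and chrX:20869916-20870165 (*Timp1*, plus), and none covers an annotated exon.
Mmp13: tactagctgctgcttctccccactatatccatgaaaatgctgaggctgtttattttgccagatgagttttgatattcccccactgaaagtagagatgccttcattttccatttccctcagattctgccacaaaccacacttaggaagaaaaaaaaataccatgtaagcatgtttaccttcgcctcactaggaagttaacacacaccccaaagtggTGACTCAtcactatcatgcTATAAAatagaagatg
Mmp3: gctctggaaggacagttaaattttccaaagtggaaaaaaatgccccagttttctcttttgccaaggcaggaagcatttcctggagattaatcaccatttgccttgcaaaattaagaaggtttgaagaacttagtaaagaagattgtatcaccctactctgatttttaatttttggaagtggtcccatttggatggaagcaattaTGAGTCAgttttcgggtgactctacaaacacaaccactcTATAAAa
Mmp10: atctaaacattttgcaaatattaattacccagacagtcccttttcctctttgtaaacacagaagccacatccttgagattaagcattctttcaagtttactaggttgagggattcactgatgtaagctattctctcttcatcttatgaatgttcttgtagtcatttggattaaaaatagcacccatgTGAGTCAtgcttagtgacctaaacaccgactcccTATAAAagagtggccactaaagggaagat
Mmp7: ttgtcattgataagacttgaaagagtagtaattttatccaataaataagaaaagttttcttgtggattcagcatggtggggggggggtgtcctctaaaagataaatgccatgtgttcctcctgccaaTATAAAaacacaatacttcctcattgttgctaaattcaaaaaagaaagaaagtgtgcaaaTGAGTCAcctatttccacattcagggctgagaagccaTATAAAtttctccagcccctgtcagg
Adamts1: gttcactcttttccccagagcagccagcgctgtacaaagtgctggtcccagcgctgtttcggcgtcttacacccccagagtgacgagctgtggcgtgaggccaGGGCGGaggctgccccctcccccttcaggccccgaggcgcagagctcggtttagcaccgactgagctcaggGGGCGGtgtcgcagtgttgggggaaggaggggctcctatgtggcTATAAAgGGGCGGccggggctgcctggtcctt
Mmp14: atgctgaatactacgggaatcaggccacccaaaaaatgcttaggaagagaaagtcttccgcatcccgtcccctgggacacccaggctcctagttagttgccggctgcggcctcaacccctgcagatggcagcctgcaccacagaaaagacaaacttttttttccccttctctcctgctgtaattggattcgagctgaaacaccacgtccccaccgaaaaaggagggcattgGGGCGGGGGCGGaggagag
Timp1: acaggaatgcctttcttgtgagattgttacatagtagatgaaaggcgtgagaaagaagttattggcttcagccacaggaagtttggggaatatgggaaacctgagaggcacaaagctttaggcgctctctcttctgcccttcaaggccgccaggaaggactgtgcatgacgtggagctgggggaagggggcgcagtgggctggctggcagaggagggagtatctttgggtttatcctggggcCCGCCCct

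In the *Mmp13* window the AP-1 match begins 35 bases and the TATA match 16 bases before the start, in *Mmp3* 46 and 7 bases and in *Mmp10* 63 and 29 bases. *Mmp7* has an AP-1 match 63 bases before the start and TATA matches at 123 and 26 bases. A match of both kinds was found in 6 of the 9 promoters of the cluster, those of *Mmp13*, *Mmp1b*, *Mmp3*, *Mmp10*, *Mmp20* and *Mmp7*, and a GC box in 0 of 9. Of 14278 promoters of protein-coding genes, 5.80% held the AP-1 motif, 10.4% the TATA box and 47.8% the GC box. Of the 5357 of these without a promoter peak in any clone, 8.92% held the AP-1 motif, 17.9% the TATA box and 23.8% the GC box. The *Adamts1* window has a TATA match 32 bases before the start and 3 GC boxes, that of *Mmp14* has 2 adjoining GC boxes and that of *Timp1* has 1. A match of letters is a description and does not show that a factor binds there.

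Promoter sequences were found for 29 of the 45 members. Their CpG content, as the number of CpG dinucleotides observed over that expected from the C and G content of the 250 bases, was 0 to 0.334 in the cluster, with a median of 0.103. The median over all 14278 promoters was 0.609, and over those without a promoter peak 0.241. The 9 members with a promoter peak in all 3 clones for which a sequence was found had a median of 0.624, from 0.259 at *Adamts12* to 0.982 at *Adamts14*, against 0.782 over the 7368 protein-coding genes of this kind. Outside the cluster the members without a promoter peak included CpG-rich ones, with 0.922 at *Adamts3*, 0.637 at *Mmp25*, 0.621 at *Adamts18* and 0.554 at *Mmp15*. They also included CpG-poor ones, with 0.125 at *Timp4*, 0.056 at *Mmp21* and 0.055 at *Adamts13*. Among all 29 members the GC box was found in 48.3%, the RUNX motif TGTGGT in 17.2%, the TEAD motif GGAATG in 6.90% and the TCF/LEF motif CTTTGAT in 0 promoters, against 47.8%, 12.0%, 11.2% and 2.65% of all promoters. No sequence was found for *Adamts4*, *Adamts5*, *Adamts6*, *Adamts7*, *Adamts8*, *Adamts10*, *Adamts15*, *Adamts16*, *Adamts19*, *Adamts20*, *Mmp2*, *Mmp9*, *Mmp11*, *Mmp16*, *Mmp17* and *Mmp19*.

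**Figure D3:**
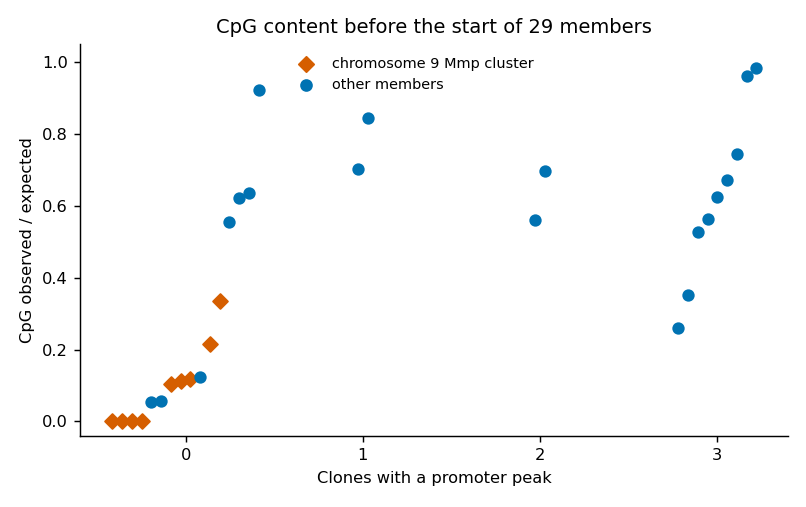
CpG content (observed over expected, no unit) of the 250 bases before the start of 29 members, by the number of clones with a promoter peak. Each point is a gene and points are spread sideways within a class; the diamonds of the chromosome 9 cluster lie at 0 to 0.334, and the circles without a promoter peak lie in a low group and a group above 0.5.

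Outside the cluster the highest *Mmp* promoter value within the list of clone 2 was that of *Mmp14*. *Mmp14* encodes the membrane-type proteinase that cuts collagen at the cell surface and activates pro-MMP2. Its promoter peak had fold enrichments of 14.7, 47.0 and 5.34 in clones 1, 2 and 3, with 102, 327 and 66 reads. *Mmp28*, or epilysin, a secreted proteinase of the epidermis, had 20.5, 29.2 and 5.44 (83, 121 and 47 reads). *Mmp19*, another secreted member, had 5.52, 14.7 and 5.71 (23, 67 and 49 reads). The peak of *Mmp11*, or stromelysin-3, had 5.84, 21.7 and 5.01 (39, 150 and 38 reads), but it lay at an internal start 4.20 to 4.22 kb inside the gene and within 1 kb of a start of *Chchd10*, so that the genes cannot be told apart there.

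The other *Mmp* genes had promoter peaks in clone 2 with or without clone 1. *Mmp2*, the gelatinase that MMP14 activates, had fold enrichments of 9.93 in clone 1 and 6.78 in clone 2 (58 and 51 reads), 12.1 kb downstream of its outermost start and within 1 kb of an internal one, and had none at the outermost start. *Mmp23* had 4.21 and 6.78 (21 and 61 reads) in these clones. In clone 2 only, *Mmp17* had 23.5 (94 reads), *Mmp24* 7.77 (33 reads, at an internal start) and *Mmp16* 5.19 (34 reads), all of them membrane-type proteinases. Of the other membrane-type genes, *Mmp15* and *Mmp25* had no promoter or body peak and 1 intergenic peak each, in clone 2. The gelatinase *Mmp9* had no promoter, body or intergenic peak in any clone, where peaks at or over neighbouring genes are not counted.

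**Figure D4:**
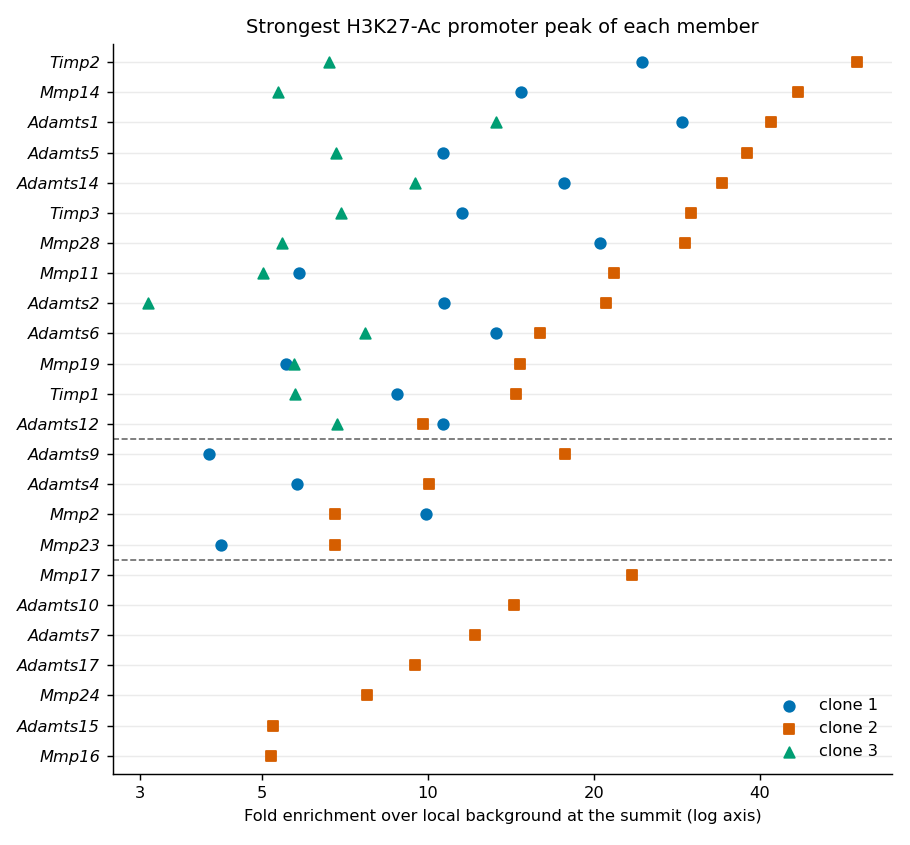
Fold enrichment at the summit (log axis) of the strongest promoter peak of each of the 24 members with a promoter peak, for clones 1 (circles), 2 (squares) and 3 (triangles), with dashed lines between genes found in 3, 2 and 1 clones. A missing symbol means that no peak was listed; within clone 2 *Timp2* has the highest value, 60.0, and all genes found in a single clone were found in clone 2.

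Among the ADAMTS proteoglycanases, which cut aggrecan and versican, *Adamts1* and *Adamts5* lie side by side on chromosome 16 and both had a promoter peak in every clone. *Adamts1* had fold enrichments of 28.9, 41.8 and 13.3 (134, 193 and 117 reads), the highest of any member in clones 1 and 3. In clone 3 the summit of this peak lay 1998 bp downstream of the outermost start, nearer to an internal start. A second promoter peak of clone 3, with its summit 469 bp upstream of the outermost start, had 4.33 (67 reads). *Adamts5* had 10.6, 38.0 and 6.81 (73, 175 and 63 reads). *Adamts9* had 4.01 and 17.7 (22 and 88 reads) in clones 1 and 2, and *Adamts15* had 5.24 (19 reads) in clone 2. *Adamts8* and *Adamts20* had no promoter peak, and the 2 intergenic peaks that *Adamts8* had in clone 2 and in clone 3 are shared with its neighbour *Adamts15*.

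Of the procollagen N-proteinases, which trim fibrillar procollagens, *Adamts14* had 17.7, 34.2 and 9.48 (105, 210 and 89 reads) and *Adamts2* had 10.7, 21.1 and 3.11 (45, 96 and 27 reads), whereas *Adamts3* had no peak of any class. *Adamts12*, which cuts the cartilage protein COMP, had 10.6, 9.80 and 6.84 (98, 135 and 76 reads) over local backgrounds of 3, 5 and 2.57 control reads. *Adamts7*, its close relative, had 12.2 (83 reads) in clone 2 only. *Adamts6*, which binds fibrillin microfibrils, had 13.3, 16.0 and 7.68 (63, 73 and 67 reads), and its relative *Adamts10* had 14.3 (56 reads) in clone 2 only, as did *Adamts17* with 9.49 (42 reads). *Adamts13*, the von Willebrand factor proteinase of the liver, and *Adamts18* and *Adamts19* had no peak of any class.

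The list of clone 2 was the longest, and the part that its length plays in these results was not tested. All 7 members with a promoter peak in a single clone had it in clone 2, as had 94.2% of the 1432 protein-coding genes of this kind, and all 4 members with one in 2 clones had it in clones 1 and 2, as had 68.6% of 954 genes. With the lists cut to the 29182 peaks of lowest q each, 22 members had a promoter peak in clone 2, as had 53.9% of all protein-coding genes. The number of members found in that clone only went from 7 to 5, as *Mmp16* and *Adamts15* dropped out.

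*Timp2*, the inhibitor that also takes part in the activation of pro-MMP2 by MMP14, had the strongest promoter peak of the inhibitors in clones 1 and 2, with fold enrichments of 24.4, 60.0 and 6.60 (113, 278 and 61 reads). *Timp3*, which is bound to the matrix and also inhibits ADAMTS proteinases, had 11.5, 30.0 and 6.96 (52, 138 and 54 reads). *Timp1*, on the X chromosome, had 8.78, 14.4 and 5.74 (51, 65 and 44 reads). *Timp4* had no promoter or body peak, and an intergenic peak in clones 1 and 3.

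*Timp2* also had the domain with the most bases under peaks of all members in clones 1 and 2 and in the mean over clones, while in clone 3 the domains of *Adamts6*, *Mmp14*, *Timp3* and *Adamts14* held more. Joining peaks across the gap customary for stitching super-enhancers gave a domain over the gene with 20722, 24930 and 4961 bases under 14, 22 and 6 peaks in clones 1, 2 and 3. By bases under peaks its ranks were 20 among 14560 domains, 111 among 18280 and 571 among 16371. In clone 3 the peaks over the gene fell into 2 domains. The gene lies at chr11:118301069-118355740 on the minus strand. Besides its promoter, 4 regions had a peak in all 3 clones. In the first intron, 27.6 to 28.3 kb from the outermost start, the fold enrichments were 24.9, 55.1 and 8.50 (115, 255 and 107 reads), close to those of the promoter, and at 30.6 to 31.4 kb they were 9.82, 6.35 and 7.31. Upstream of the gene they were 21.0, 37.3 and 9.79 at 7.22 to 7.46 kb (103, 259 and 78 reads) and 8.72, 14.8 and 5.03 at 23.7 to 23.9 kb.

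**Figure D5:**
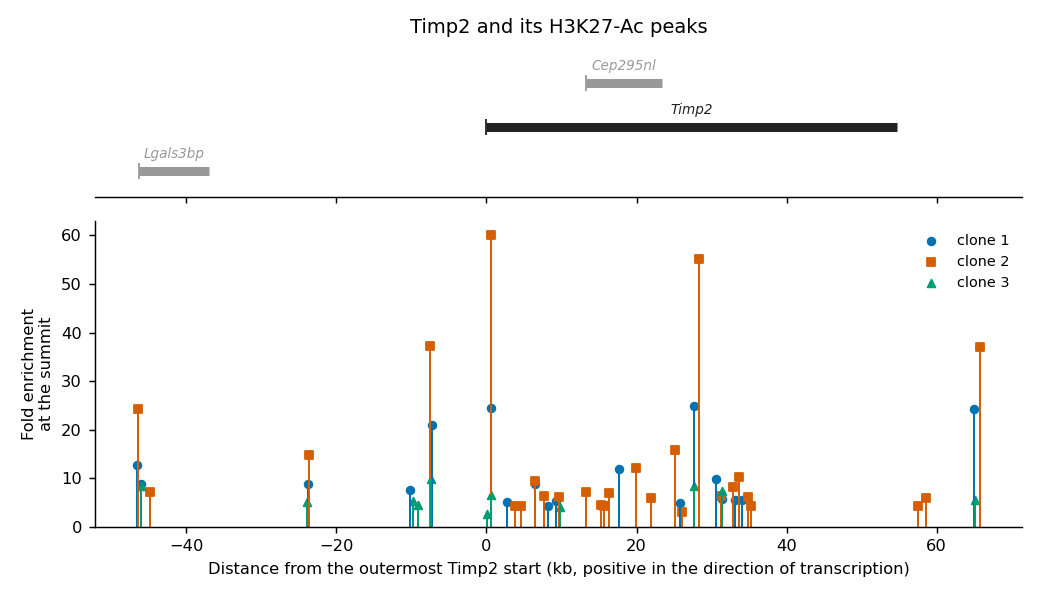
Protein-coding genes (upper panel) and H3K27-Ac peak summits of clones 1, 2 and 3 (lower panel, fold enrichment on a linear axis) around *Timp2*, by distance in kb from its outermost start, positive in the direction of transcription. The promoter, the first intron near 28 kb and the upstream region near −7 kb carry peaks of all 3 clones.

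Next in the mean number of bases under peaks came *Adamts4*, *Mmp28*, *Mmp14* and *Adamts2*. The domain over *Adamts4* held 8610 and 14549 bases in clones 1 and 2, of which 16.7% and 21.1% lay inside the gene. That of *Mmp28* held 8426, 8880 and 3945 bases (ranks 267, 688 and 1020), shared with *Taf15*. That of *Mmp14* held 4398, 9631 and 5238 bases (ranks 1128, 612 and 494), shared with *Mrpl52*. The largest domain over *Adamts2* lay wholly inside the gene and held 6234, 10796 and 1553 bases (ranks 549, 517 and 6036).

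A body peak was more frequent than over all genes. It was present in all 3 clones at 11 members (24.4%), against 10.9% of all protein-coding genes. The members were longer, with a median of 25.1 kb against 17.4 kb, and a long gene has more room for a peak. Of the 23 members of at least 25.1 kb, 9 had a body peak in all 3 clones (39.1%), against 22.5% of the 8782 protein-coding genes of at least this length. Of the 22 shorter members 2 had one (9.09%), against 3.22%. The members were longer within these classes too, with medians of 76.3 kb against 58.1 kb and of 10.4 kb against 8.065 kb. Length was therefore not matched, and its part was not tested. *Adamts16*, of 114 kb, had 4, 3 and 5 body peaks in clones 1, 2 and 3 but no promoter peak. When the peaks were merged over clones, 13 of 33 promoter regions, 12 of 116 body regions and 8 of 44 intergenic regions of the members had a peak in all 3 clones. The same count over all genes is not given, so these numbers do not set the members apart. Of the 78 body regions found in a single clone, 57 were of clone 2, which had the longest list. Intergenic regions near both *Adamts8* and *Adamts15* are counted for each of them.

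Several of these shared regions exceeded the promoter peak of their gene in at least 1 clone. Within *Adamts9* a region 2.76 to 2.81 kb from the outermost start had fold enrichments of 18.8, 45.3 and 6.53 (72, 182 and 62 reads), where the promoter itself had 4.01 and 17.7 and none in clone 3. This region lies within 1 kb of a start of the non-coding gene *9530026P05Rik* and covers an exon of it, so that the genes cannot be told apart there. *Mmp2* had 3 shared regions in its body, with 7.25, 11.0 and 5.87, with 7.06, 18.9 and 5.65 and with 7.79, 13.1 and 5.04 in clones 1, 2 and 3. Its body was thus marked in clone 3 while no promoter peak was listed there. Each value is that of the strongest peak of a clone in the merged region, so the summits can differ. In the first *Mmp2* region they lay 7.81, 8.81 and 7.65 kb from the outermost start in clones 1, 2 and 3. Within *Mmp24* a region 29.8 to 30.0 kb from the start had 4.75, 21.2 and 4.89, and a second had 48.9, 88.8 and 10.4 at a start of *BC029722*. *Adamts2* had 21.5, 17.5 and 8.73 (117, 116 and 84 reads) in its intron 3, 72.1 to 72.7 kb from the start. *Adamts14* had 12.7, 13.5 and 16.4 (52, 92 and 132 reads) 4.20 to 5.08 kb upstream of its start. Upstream of *Mmp19*, 11.5 to 11.6 kb from its start, the values were 8.66, 11.5 and 8.72, and downstream of *Adamts6* they were 17.8, 16.4 and 7.58.

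The 300 bases around the clone 1 summit are shown for 3 of these intronic regions, that of *Timp2* because its fold enrichment was close to that of the promoter and those of *Adamts2* and *Mmp2* because they hold an AP-1 match. They were chosen after their values and letters were seen. They lie at chr11:118327926-118328225 (intron 1 of *Timp2*), chr11:50674028-50674327 (intron 3 of *Adamts2*) and chr8:92834951-92835250 (intron 5 of *Mmp2*), are read on the plus strand of GRCm38, and cover no annotated exon. Capitals mark the AP-1 motif TGANTCA.
Timp2 intron: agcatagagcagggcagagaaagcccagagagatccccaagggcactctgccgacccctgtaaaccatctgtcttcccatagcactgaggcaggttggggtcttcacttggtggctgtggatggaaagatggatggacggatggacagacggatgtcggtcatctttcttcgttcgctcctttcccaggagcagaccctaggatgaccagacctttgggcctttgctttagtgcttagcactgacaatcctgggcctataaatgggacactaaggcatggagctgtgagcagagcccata
Adamts2 intron: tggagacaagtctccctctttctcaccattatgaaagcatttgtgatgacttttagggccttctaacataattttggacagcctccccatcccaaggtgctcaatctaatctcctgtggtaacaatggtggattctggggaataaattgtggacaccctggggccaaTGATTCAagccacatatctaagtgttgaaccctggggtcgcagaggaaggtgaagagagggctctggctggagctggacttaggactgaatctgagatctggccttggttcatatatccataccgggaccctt
Mmp2 intron: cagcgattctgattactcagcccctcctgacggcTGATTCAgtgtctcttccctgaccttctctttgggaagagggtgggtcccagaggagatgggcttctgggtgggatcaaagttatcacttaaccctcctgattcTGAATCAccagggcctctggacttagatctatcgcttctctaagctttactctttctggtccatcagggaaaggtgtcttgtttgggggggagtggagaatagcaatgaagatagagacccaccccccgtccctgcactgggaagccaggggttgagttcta

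The window of *Mmp2* holds 2 AP-1 matches, that of *Adamts2* 1 and that of *Timp2* 0. Over all body and intergenic peaks of the members that lie away from other protein-coding starts, 9 of 79 summit windows held the AP-1 motif in clone 1 (11.4%), as did 15 of 120 in clone 2 and 10 of 58 in clone 3 (17.2%). Over all peaks away from starts the shares were 9.36%, 11.2% and 11.2%. The RUNX motif was found in 27.8%, 25.8% and 34.5% of the members' windows, against 21.9%, 23.0% and 22.4%. The TEAD motif was found in 16.5%, 20.0% and 12.1%, against 17.0%, 16.4% and 17.2%, and the TCF/LEF motif in 3.80%, 2.5% and 3.45%, against 4.19%, 2.91% and 4.68%. For the TATA box the shares were 16.5%, 5.83% and 24.1% against 12.8%, 5.74% and 15.8%, and for the GC box 1.27%, 8.33% and 5.17% against 8.49%, 13.0% and 6.26%.

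A list of 32 other genes of matrix proteolysis, which holds proteinases, inhibitors and matrix substrates and was put together by hand, was set beside the members, with no test of a difference. Of these, 19 had a promoter peak in all 3 clones (59.4%, against 46.5% of all protein-coding genes), 4 in 1 or 2 clones and 9 in none. *Plau* and its receptor *Plaur*, which start the plasmin cascade at the cell surface, had fold enrichments of 7.70, 25.6 and 5.27 and of 31.2, 43.1 and 12.6 in clones 1, 2 and 3. *Furin*, the convertase that activates membrane-type MMPs, had 51.1, 84.0 and 16.1, and *Reck*, a membrane-anchored MMP inhibitor, had 5.56, 20.0 and 2.99. The genes found in 1 or 2 clones were *Adam8* with 8.92 in clone 2, and *Adam12* with 5.51 and 11.6, *Adamtsl2* with 6.41 and 13.3 and *Adamtsl5* with 9.82 and 12.49 in clones 1 and 2. Those without a promoter peak were *Plg*, *Serpinb2*, *Tfpi2*, *Ctsk*, *Ctss*, *Loxl2*, *Acan*, *Papln* and *Adamtsl1*.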

How the data were processed

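H3K27-Ac ChIP-seq of 3 Cdkn2ab-/- tumour cell clones was analysed from peak lists, 1 per clone. Single-end reads had been mapped to GRCm38 with Bowtie2, and the submitters' processing notes name MACS2 2.1.1. Each peak has a deposited ratio, the fold enrichment of pileup over local background with 1 added to both, and deposited −log10 p and q values of its summit. Peak names mark the reads of clones 1 and 2, but not of clone 3, as checked for allelic mapping bias. Reads were not split by allele.

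Peaks on unplaced sequence (5, 21 and 3) were left out. Starts were those of GENCODE M21. A peak within 1 kb of a start was a promoter peak, any other over the gene a body peak, and one within 50 kb that touched no protein-coding gene and no 1 kb start window an intergenic peak. Regions of different clones were merged where they shared 1 bp or more. ChIP reads were solved from fold enrichment and p and came out whole to within 0.001 read, a procedure tested on simulated data. At 1 of 345 member peaks a second solution was possible, and its reads are not printed. Fold enrichment depends on each list's depth and control, so a higher value in another list does not show more acetylation, and values were ranked within a list. No IgG library of clone 2 was used here, and which control its list was called against is not given in the sources used here, so the fold enrichments and control reads of clone 2 rest on an unknown control. Tools were pysam 0.24.0, matplotlib 3.10.9, scipy 1.17.1, pandas 2.3.3 and numpy 2.4.6 under Python 3.11.15.

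With 1 condition, no test between groups was made, and spread is the SD over clones. Values per clone were given for members with a promoter peak, the chromosome 9 cluster, the *Timp* genes and the 5 members with the most bases in joined domains, except that the promoter peak values of *Adamts4* are not reported here. The members and lists were chosen with earlier results of these data known. The alternatives tried were a stricter −log10 q (5 or more), equal lists, other promoter and intergenic distances, and leaving out each clone.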

Additional observations from a re-analysis of the deposited data

How the results depend on the processing

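Every alternative to the main counts kept them within 1.5 times, or the median fold enrichment within the SD over clones. For leaving out a clone this could hardly come out otherwise. It can only keep or raise a count over all clones, and it cannot move a mean over 3 clones by more than their SD. That SD also holds differences in depth and control between the lists. Members with a promoter peak in all 3 clones numbered 10 at a −log10 q of at least 5, where *Adamts2*, *Mmp11* and *Mmp19* were found in 2 clones, 16 with starts taken within 2.5 kb, and 12 with the outermost start only, where *Mmp2* and *Mmp24* had no promoter peak and *Mmp11*, *Mmp23* and *Adamts4* had one in clone 2 only. Leaving out promoter peaks at a start of another protein-coding gene, an alternative chosen after seeing the data, also gave 12. Without each clone in turn the number was 13 to 17 and the mean per clone 15 to 20.5. The members with any peak then numbered 19 to 20, and the median fold enrichment was 8.62 to 13.0. The stricter q also lowered the share of all protein-coding genes marked at a promoter in every list, from 46.5% to 42.0%. Whether the members fell further was not tested. For the alternatives on starts and clones no share over all genes is given. The chromosome 9 cluster held 0 peaks under all alternatives run, also when widened by 50 kb on each side. None of these alternatives could have given another number. Stricter, shorter or fewer lists cannot gain a peak, and the nearest peaks lay more than 50 kb away. Depth limits what a missing peak shows, since only sites past the threshold of a list are listed, and an unmarked site and a weakly marked site cannot be told apart.

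No paired analysis was possible because peaks of the IgG libraries were not listed separately, and a clone was sampled in a single condition.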
